A study of Mus musculus with 11 samples.

Results

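Levels of 7 natural killer (NK) cell genes were followed in RNA sequencing of CD8+ Tregs: Ncr1, Styk1, Sh2d1b1, Txk, Cd160, Cd226 and Klrg1. They were chosen by name, as the 7 rows with these symbols among the 54532 genes of the counts table, and all 7 were among the 13129 genes with enough counts to be tested. They stand beside the large Ly49 and NKR-P1 lectin receptor families of NK cells, although Klrg1 itself encodes a lectin-like receptor. The cells were splenic CD8+CD44+Ly49+CD122+ lymphocytes of wild-type (WT) mice, sorted after CD8 bead selection with antibodies to CD8, CD44, Ly49 and CD122, so a stain for the T cell receptor or for NK1.1 was not part of the stated gate. Young mice were 2 to 3 months old (3 males and 3 females) and middle-aged mice, which the sample labels call old, were 10 to 12 months old (2 males and 3 females), with 1 library per sample and 11 in all. The comparison asks how the expression of these genes in CD8+ Tregs differs between young and middle-aged mice. Libraries are named below by age group, sex and the replicate number of the labels (young male 1, middle-aged female 2 and so on).

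NK cells are innate lymphocytes that read activating and inhibitory receptors on their surface and kill or release cytokines when activation prevails. Many of the same receptors and kinases are also used by memory CD8+ T cells, so that a transcript of an NK cell gene in a CD8+ sort can come from the T cells themselves or from NK cells sorted with them. Ncr1 encodes NKp46, an activating receptor that marks NK cells and other innate lymphocytes and is rare on T cells, and Sh2d1b1 encodes EAT-2, an adaptor below SLAM receptors in NK cells. Txk, Cd160 and Cd226 are by contrast well known in CD8+ T cells too. In bulk RNA, fewer cells of a type and less RNA per cell cannot be told apart.

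Young libraries held 6135736 to 24394532 counts (median 17282972) and middle-aged ones 17066900 to 23113240 (median 20304535). Young male 1 and young female 1 (8421396 counts) were the shallow libraries. A count of 0 allowed a level of 0.119 to 0.543 CPM (counts scaled per library to a common total with TMM factors), a limit that covers counting error only. Genes that define CD8+ T cells were present in every library, with Cd3e at 533 to 984 CPM and Cd8b1 at 1293 to 2717 CPM. Middle-aged female 2 stood apart in the markers of several other cell types. It had the highest summed level of all 11 libraries for myeloid cells (3684 CPM, against 1423 to 3442 CPM in the others), dendritic cells, plasma cells and B cells, and its Lyz2, the lysozyme of myeloid cells, was at 1058 CPM against 71.0 to 285 CPM in the other middle-aged libraries. The myeloid sums of young libraries were mostly Ly6c2 (1320 to 3332 CPM), which was at 995 CPM in middle-aged female 2. Values without this library are given beside the genes in which it stood apart. Levels also moved with the replicate number. Each library's gene length slope, the change of a gene's log2 level per doubling of its length, was -0.09 to -0.27 in libraries numbered 1, 0.01 to 0.09 in those numbered 2 and 0.16 to 0.18 in those numbered 3, in both age groups.

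By the coordinates of the counts table (GRCm38), Ncr1 is at chr7:4337724-4345164 (plus strand), Styk1 at chr6:131299142-131353597 (minus), Sh2d1b1 at chr1:170277320-170286769 (plus), Txk at chr5:72695978-72752777 (minus), Cd160 at chr3:96798763-96829351 (minus) and Klrg1 at chr6:122270596-122282882 (minus). The counts are per gene. Of the 31-base stretches in the transcripts of Sh2d1b1, 18.3% also occur in other genes, all of them in its neighbour Sh2d1b2 (GENCODE M21), so its counts are uncertain to that extent, although Sh2d1b2 itself had 0 counts in 10 of 11 libraries and 4 counts in young male 3. For the other 6 genes the shared portion was 1.44% or less. The promoter table of RefSeq (GRCm38.p6) held 4 of the 7 genes. Factors of the RUNX and T-box families act in NK cells and CD8+ T cells, and their short motifs were searched on both strands in the 250 bases before each start. The 200 bases before the start are shown for the first listed start of Ncr1, the NK cell gene with the widest range of levels over libraries, of Sh2d1b1, its companion among genes of innate cells, and of Cd160, an abundant gene of both cell types. Matches to TGTGGT (RUNX, or ACCACA on the other strand) stand in capitals.
Ncr1 (chr7:4337515-4337714, plus strand): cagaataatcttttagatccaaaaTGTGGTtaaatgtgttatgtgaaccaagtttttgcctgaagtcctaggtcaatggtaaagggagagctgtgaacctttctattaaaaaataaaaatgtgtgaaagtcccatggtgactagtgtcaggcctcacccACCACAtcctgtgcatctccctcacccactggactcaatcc
Sh2d1b1 (chr1:170277118-170277317, plus strand): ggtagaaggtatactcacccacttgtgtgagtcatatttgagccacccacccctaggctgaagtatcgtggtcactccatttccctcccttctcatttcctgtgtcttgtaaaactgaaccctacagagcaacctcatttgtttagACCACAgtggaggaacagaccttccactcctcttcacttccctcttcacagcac
Cd160 (chr3:96829352-96829551, minus strand): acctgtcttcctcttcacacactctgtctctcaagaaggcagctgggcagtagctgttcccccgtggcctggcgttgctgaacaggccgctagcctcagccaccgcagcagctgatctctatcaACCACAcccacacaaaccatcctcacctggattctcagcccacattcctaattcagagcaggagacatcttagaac
The RUNX letters first occurred 176 bases before the start of Ncr1 and again at 41 bases, 54 bases before that of Sh2d1b1 and 76 bases before that of Cd160. A second listed start of Txk had a match at 20 bases, and its first start had none. All 4 genes in the table thus had a match before at least 1 start. Of the 32851 promoters in the table, 14.0% had one, a share that counts single starts. A gene with more than 1 listed start has more places for a match, so the count of genes and this share are not alike. The T-box letters GGTGTGA occurred before 1 of the 4 genes, at the second start of Cd160, and in 3.33% of all promoters, again counted by single starts. A match is a description of these letters and not a bound site.

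Of the 7 genes, Ncr1 showed the widest gap between age groups, and the others overlapped broadly. The quasi-likelihood test of edgeR gave 0 of the 7 an adjusted p (Benjamini-Hochberg) under 0.05 for age, in a test that called 3 of 13129 genes (0.0229%). At an unadjusted p under 0.05, 1 of the 7 genes (Ncr1) was lower in middle-aged libraries, as were 130 of all genes (0.990%). At such a p, 263 of the 13129 genes were higher, which is the background for the counts of higher genes below. Limma voom with sample quality weights called 1 of the 7 (Ncr1), among 138 genes (1.05%), and DESeq2 also called Ncr1 alone of the 7, among 112 of 13023 genes (0.860%). With each library's gene length slope as a further term, a setting chosen after the data were seen, edgeR called Ncr1 among 45 genes (0.343%). In 0 of the 7 genes did the age groups separate without overlap, which 1.31% of all genes did. The log2 fold change (middle-aged over young) was below 0 for 4 and above 0 for 3 of the 7, with a median of -0.26, beside a median of 0.00 over all genes tested, of which 49.6% lay below 0.

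**Figure D1:**
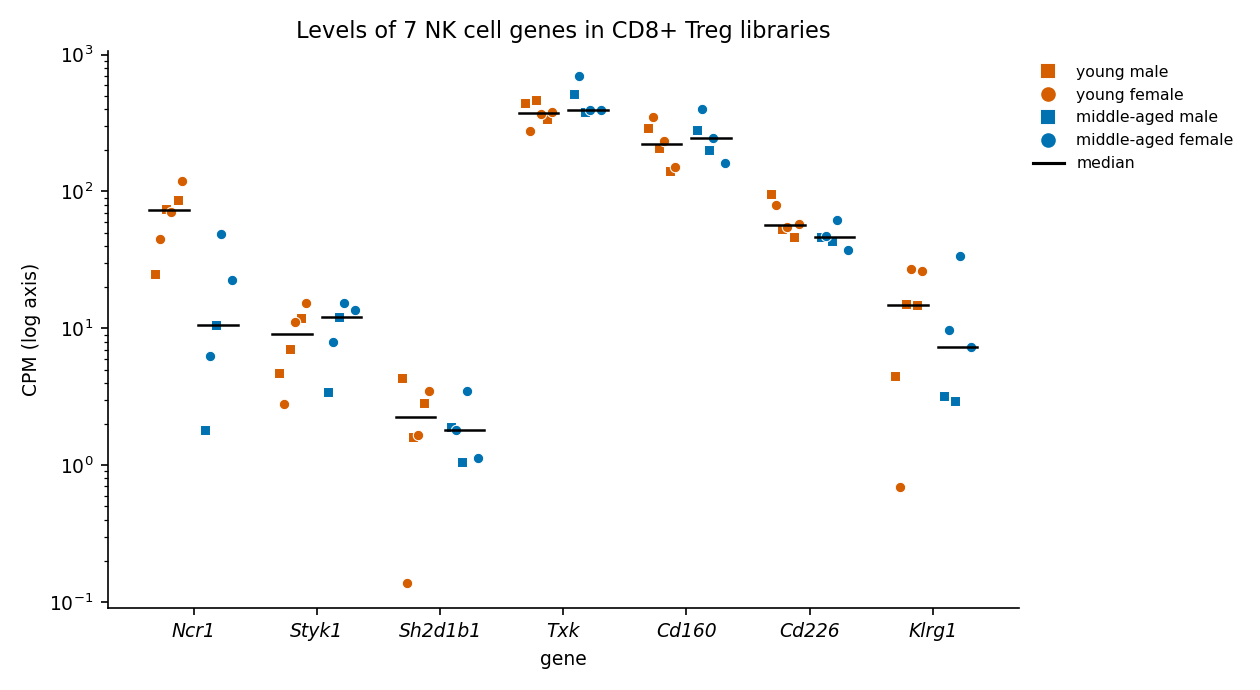
Level of each gene in each library in CPM on a log axis, by age group (colour) and sex (marker shape), with replicate numbers running from left to right within an age group and a line at the group's median. Middle-aged Ncr1 runs from 1.81 to 48.8 CPM against 25.1 to 120 CPM in young libraries, while Txk and Cd160 lie above 100 CPM in every library.

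Ncr1, the gene of NKp46, was at 25.1 CPM in the lowest of 6 young libraries (young male 1), at a median of 72.9 CPM, and at 120 CPM in the highest (young female 3). The middle-aged libraries had 1.81 CPM (male 1), 10.6 CPM (male 2), 6.25 CPM (female 1), 48.8 CPM (female 2) and 22.6 CPM (female 3). Thus 4 of the 5 middle-aged values were below all of the young ones, and the groups overlapped through middle-aged female 2. The young mean was 70.4 ± 33.0 CPM (SD, n = 6) and the middle-aged mean 18.0 ± 18.9 CPM (SD, n = 5). In the edgeR test the log2 fold change was -2.33 (SE 0.69, a 5.03-fold lower level), with an adjusted p of 0.660 in edgeR, and its p ranked at 110 among the 13129 genes. The exact permutation test over libraries gave p = 0.0108 (2-sided, on mean log2 CPM, not adjusted), and the smallest p it can give is 0.00216.

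Whether Ncr1 passed the threshold therefore depended on the test. Limma voom gave a log2 fold change of -2.69 (adjusted p = 0.00938), DESeq2 -2.34 (adjusted p = 0.0232) and edgeR with the gene length slope -2.63 (adjusted p = 0.0423), while its adjusted p over the 13 other scalings, filters, tests, terms and subsets ranged from 0.00938 to 1.00. The direction was the same in all of these and in all 11 fits that each left out 1 library, where the log2 fold change lay between -2.87 (without middle-aged female 2) and -1.89 (without middle-aged male 1). Within replicate numbers the difference in mean log2 CPM was -3.27 for number 1, -1.67 for number 2 and -2.17 for number 3. Ncr1 moved with the number as well, with a mean of 19.5 CPM over libraries numbered 1, 51.3 CPM over those numbered 2 and 76.4 CPM over those numbered 3. The fitted difference was -3.33 in males and -1.59 in females, and the interaction of age and sex was not past the threshold (1.73, SE 1.22, adjusted p = 1.00 in edgeR).

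Adaptors and kinases that carry the signals of NKp46 and other activating receptors were read beside it. Of 6 such genes (Cd247, Fcer1g, Tyrobp, Hcst, Syk and Zap70), all tested, 0 had an adjusted or unadjusted p under 0.05 in edgeR, 4 had a log2 fold change below 0 and 2 above, and the median was -0.13. Fcer1g, the FcR gamma chain, was at 105 ± 26.3 CPM in young libraries (SD, n = 6) and 86.9 ± 43.8 CPM in middle-aged ones (SD, n = 5), and Cd247, the CD3 zeta chain that T cells also use, was at 287 ± 54.6 and 299 ± 69.1 CPM. Tyrobp, the DAP12 adaptor of NK and myeloid cells, was at 30.1 to 47.9 CPM in 4 middle-aged libraries, below every young library (49.6 to 173 CPM), and at 188 CPM in middle-aged female 2, above all of them. Its log2 fold change was -0.88 (SE 0.45, adjusted p = 1.00 in edgeR and 0.0463 in limma voom), and -1.53 in edgeR without that library.

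Styk1 and Sh2d1b1 were the least abundant of the genes per kilobase. Styk1 encodes a receptor-like kinase found in NK cells, and its young libraries ran from 2.78 CPM (young female 1) through a median of 9.09 CPM to 15.4 CPM (young female 3). In middle-aged libraries it was at 3.42 CPM (male 1), 12.0 CPM (male 2), 7.89 CPM (female 1), 15.4 CPM (female 2) and 13.5 CPM (female 3). The middle-aged values lay within the young range, and the log2 fold change was 0.17 (SE 0.51, edgeR adjusted p = 1.00), with an interval of 2 SE from -0.85 to 1.18. Styk1 moved with the replicate number, with a mean of 4.70 CPM over the 4 libraries numbered 1, 11.4 CPM over the 4 numbered 2 and 13.6 CPM over the 3 numbered 3. Between age groups, mean log2 CPM differed by 0.51, 0.61 and 0.00 among libraries of these numbers. Its Pearson correlation with the gene length slope was 0.92 (Spearman 0.86) over 11 libraries, given without a p as a description.

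Sh2d1b1 had between 1 and 84 counts per library. It was at 0.139 CPM in young female 1, a single count, at a median of 2.27 CPM in young libraries and at 4.34 CPM in young male 1. The middle-aged libraries had 1.90 CPM (male 1), 1.06 CPM (male 2), 1.80 CPM (female 1), 3.51 CPM (female 2) and 1.14 CPM (female 3). All 5 lay inside the young range, and the log2 fold change of -0.26 (SE 0.74, edgeR adjusted p = 1.00) came with an interval of 2 SE from -1.74 to 1.22, so that a smaller difference was not detectable at this depth. Without middle-aged female 2, the highest of the middle-aged libraries, the log2 fold change was -0.61 (edgeR adjusted p = 1.00). Mean log2 CPM differed by 0.90, 0.24 and -1.38 among libraries numbered 1, 2 and 3. Sh2d1a, which encodes SAP, the adaptor of the same family in T cells, was at 257 ± 151 CPM in young libraries (SD, n = 6) and 213 ± 105 CPM in middle-aged ones (SD, n = 5). Among 13 tested genes of the SLAM receptors and their adaptors, 2 had an unadjusted p under 0.05 and both were lower (Cd244a and Slamf6), none had an adjusted p under 0.05 in edgeR, and the median log2 fold change was -0.02.

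Txk, a Tec family kinase below the T cell receptor (also known as Rlk), was at 278 CPM in young female 1, at a median of 373 CPM and at 466 CPM in young male 2. The middle-aged libraries had 514 CPM (male 1), 382 CPM (male 2), 696 CPM (female 1), 393 CPM (female 2) and 392 CPM (female 3). Both middle-aged libraries numbered 1 lay above every young library and the other 3 within the young range. The log2 fold change was 0.35 (SE 0.23, edgeR adjusted p = 1.00), with an interval of 2 SE from -0.12 to 0.81, and within replicate numbers the difference in mean log2 CPM was 0.77 for number 1, -0.09 for number 2 and 0.14 for number 3. Of its relative Tec, which gives the kinase family its name, every middle-aged value (38.5 to 81.0 CPM) lay below every young one (96.8 to 161 CPM). Tec had a log2 fold change of -0.94 (SE 0.24), an adjusted p of 0.454 in edgeR, 0.0171 in limma voom and 0.0165 in DESeq2. Over the 7 tested genes of Tec kinases and their partners, 1 had an unadjusted p under 0.05 in edgeR (Tec, lower), 0 an adjusted one, and the median was 0.13.

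Cd160 encodes a receptor anchored by a lipid in the membrane, which binds HVEM and MHC class I molecules. Its young libraries ran from 141 CPM (young male 3) through a median of 221 CPM to 352 CPM (young female 1). The middle-aged libraries had 282 CPM (male 1), 201 CPM (male 2), 399 CPM (female 1), 245 CPM (female 2) and 162 CPM (female 3). In both age groups the libraries numbered 1 were the highest and those numbered 3 the lowest, without overlap between numbers (282 to 399 CPM, 201 to 245 CPM and 141 to 162 CPM), so that the replicate number separated Cd160 and age did not. The log2 fold change was 0.15 (SE 0.30, edgeR adjusted p = 1.00, interval of 2 SE from -0.46 to 0.76), and mean log2 CPM differed by 0.07, 0.01 and 0.15 among libraries numbered 1, 2 and 3. Btla, which shares the ligand HVEM, was at 54.7 ± 8.78 CPM in young libraries (SD, n = 6) and 69.2 ± 7.68 CPM in middle-aged ones (SD, n = 5) (log2 fold change 0.35, SE 0.20, edgeR adjusted p = 1.00), and Tnfrsf14, the gene of HVEM, was at 4.26 ± 2.94 and 4.13 ± 2.17 CPM. Among 8 tested genes of this axis, 1 (Tnfsf14, the ligand LIGHT) was higher at an unadjusted p under 0.05 in edgeR, 0 at an adjusted one, and the median was 0.28.

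Cd226 encodes DNAM-1, an activating receptor for the nectin-like ligands that Tigit and Cd96 also bind. The counts table places it at chr18:89197431-89270201 (plus strand), and GENCODE M21 gives the gene other bounds. It was at 46.7 CPM in young male 3, at a median of 56.6 CPM and at 95.7 CPM in young male 1. In middle-aged libraries it was at 46.4 CPM (male 1), 43.4 CPM (male 2), 47.1 CPM (female 1), 62.1 CPM (female 2) and 37.4 CPM (female 3). Of 5 middle-aged values 3 were below all young ones, that of male 1 only just, and the log2 fold change was -0.46 (SE 0.25, edgeR adjusted p = 1.00, exact permutation p = 0.0758). Among libraries of 1 replicate number, mean log2 CPM differed by -0.90 for number 1, -0.05 for number 2 and -0.48 for number 3. The highest young values were those of the 2 shallow libraries, and over the 9 libraries with more than 10000000 counts the log2 fold change was -0.19. Tigit was at 6.74 ± 4.77 CPM (SD, n = 6) and 4.89 ± 2.55 CPM (SD, n = 5), and Cd96 at 233 ± 62.1 and 210 ± 38.7 CPM, in young and middle-aged libraries. Of 8 tested genes of this axis, 1 (Pvrig, an inhibitory receptor of the same ligand family) was higher at an unadjusted p under 0.05 in edgeR, 0 at an adjusted one, and the median was 0.09.

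Klrg1 encodes an inhibitory receptor for cadherins that marks mature NK cells and effector CD8+ T cells. Its young libraries ran from 0.695 CPM (young female 1, 5 counts) through a median of 14.8 CPM to 27.1 CPM (young female 2). The middle-aged libraries had 3.19 CPM (male 1), 2.95 CPM (male 2), 9.69 CPM (female 1), 33.7 CPM (female 2) and 7.35 CPM (female 3). Middle-aged female 2 had the highest level of all 11 libraries, and the other 4 middle-aged ones lay below all 4 deeper young libraries (14.7 to 27.1 CPM). The shallow young libraries were low as well, with young male 1 at 4.52 CPM. The log2 fold change was -0.85 (SE 0.82, edgeR adjusted p = 1.00), with an interval of 2 SE from -2.48 to 0.79. Without middle-aged female 2 it was -1.47, over the 9 deeper libraries -1.40 and without the sex term -0.37, each with an adjusted p over 0.05 in edgeR, and DESeq2 gave no adjusted p for Klrg1. Among libraries of 1 replicate number, it differed in mean log2 CPM by 1.56 for number 1, -0.99 for number 2 and -1.40 for number 3. In the list of genes around KLRG1 (ligands, signalling genes and markers of its effector state), 3 of 11 tested genes were higher at an unadjusted p under 0.05 in edgeR (Cdh1, S1pr5 and Id2), 0 at an adjusted one, and the median was 0.45. Over all genes tested, 263 of 13129 were higher at such an unadjusted p. S1pr5 was at 5.97 to 55.2 CPM in young and 102 to 185 CPM in middle-aged libraries (log2 fold change 1.86, SE 0.42). Id2 was at 186 to 264 and 295 to 582 CPM (1.03, SE 0.21). Both were without overlap, as were 1.31% of all genes tested. The list summed to 881 to 1488 and 1452 to 1984 CPM (exact permutation p = 0.0108, not adjusted for the number of lists). Cx3cr1, a marker of terminal effector cells, was at 0 to 10.5 CPM in young libraries, at 0 to 8.01 CPM in 4 middle-aged libraries and at 42.5 CPM in middle-aged female 2. Il7r, which is low on such effector cells, was lowest of all libraries in middle-aged female 2 (249 CPM), where the young libraries had 356 to 545 CPM. The same library had the highest summed level of myeloid genes (3684 CPM), and which cells its Cx3cr1 came from was not tested.

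**Figure D2:**
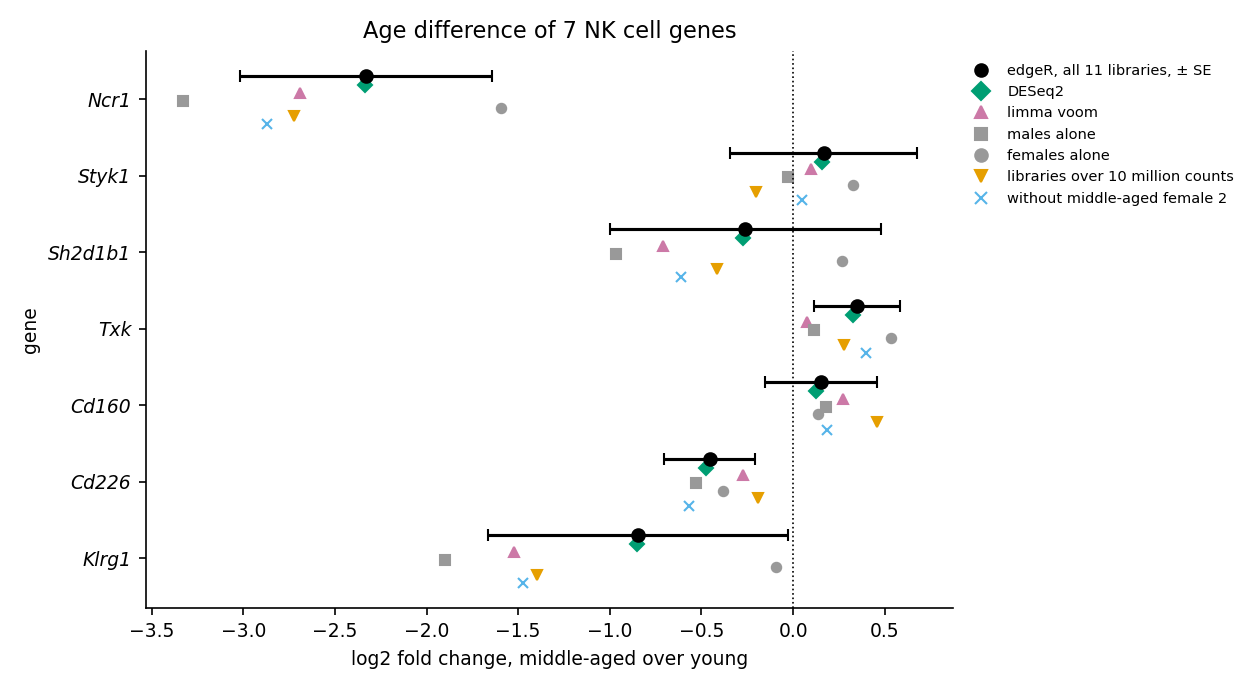
Log2 fold change (middle-aged over young) of each gene from edgeR with its SE over all 11 libraries, and the same value from DESeq2, from limma voom, in each sex, in the 9 deep libraries and without middle-aged female 2. Ncr1 lies between -3.33 and -1.59 in all of them, and the points of Styk1 and Sh2d1b1 fall on both sides of 0.

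Sex was not associated with these genes past the threshold. The sex term of the edgeR model called 5 genes at an adjusted p under 0.05, 0 of them among the 7, and 0 genes, hence none of the 7, had such a p for the interaction of age and sex. The largest sex difference among the 7 was that of Klrg1 (log2 fold change 1.41, female over male, unadjusted p = 0.114, adjusted p = 1.00).

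Levels of different genes were compared per kilobase of the gene length given with the counts. Cd160 was the most abundant in young libraries (86.9 ± 30.8 CPM per kilobase, SD, n = 6), followed by Ncr1 (45.7 ± 21.4), Txk (34.5 ± 6.27), Cd226 (27.5 ± 8.03), Klrg1 (10.4 ± 7.62), Styk1 (at most 2.62 in a library) and Sh2d1b1 (0.922 ± 0.593). In middle-aged libraries Ncr1 came below Cd226 with 11.7 ± 12.3 CPM per kilobase (SD, n = 5), after Cd160 (97.6 ± 34.4), Txk (43.4 ± 12.3) and Cd226 (20.1 ± 3.88). Neighbours in this order often changed places between libraries, with Ncr1 above Txk in 5 of 11 and above Cd226 in 5 of 11 libraries, whereas Cd226 was above Klrg1 and Klrg1 above Styk1 in all 11. The place of Txk rested on the length used. Its length in the table is 10955 bases, and its longest protein-coding transcript in GENCODE M21 has 2344 bases. With that length, a setting chosen after the data were seen, Txk was above Cd160 in 10 of 11 libraries, against 0 of 11 with the table's length, and Cd226 (4494 bases, against 2357 in the table) was above Klrg1 in 7 of 11 rather than all 11, and Klrg1 above Styk1 in 9 of 11.

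**Figure D3:**
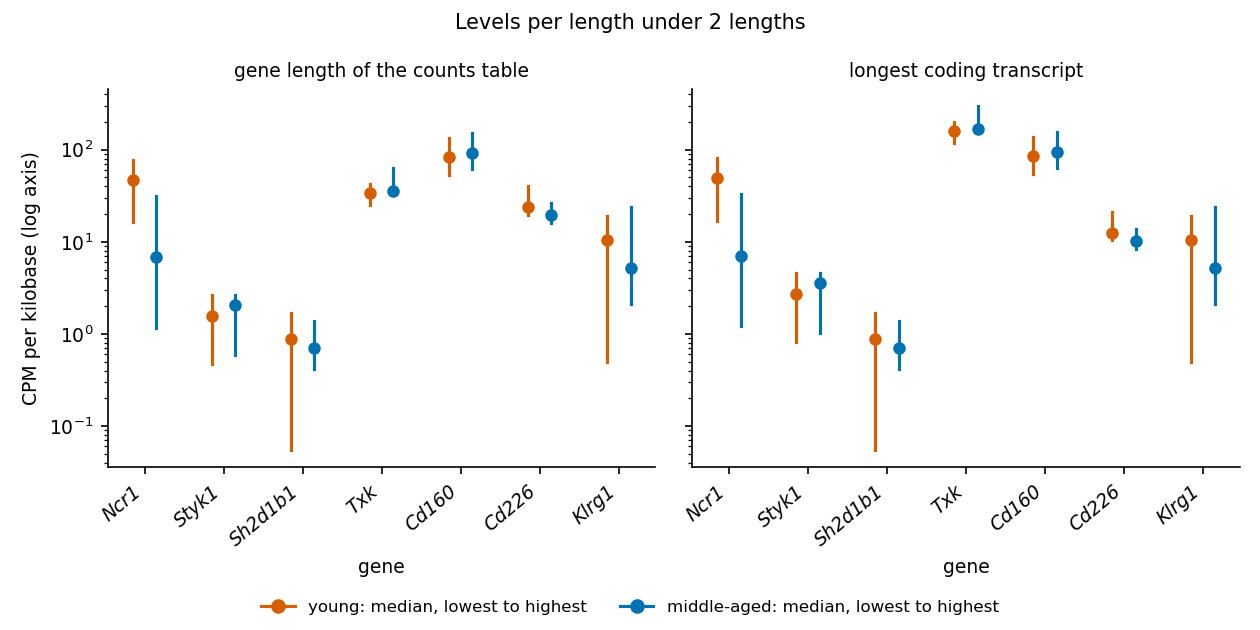
Median and range of CPM per kilobase on a log axis, for young and middle-aged libraries, with the gene length of the counts table (left) and with the longest coding transcript (right). Txk moves from 34.5 to 161 CPM per kilobase on average in young libraries between the lengths, and Sh2d1b1 is lowest under both.

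The 7 transcripts did not keep fixed proportions to each other. Per library, the ratio of Txk to Ncr1 ran from 3.16 (young female 3) to 268 (middle-aged male 1), that of Cd160 from 1.26 to 147, and that of Styk1 from 0.0642 (young female 1) to 1.84 (middle-aged male 1), computed on log2 CPM with a prior count of 2. In middle-aged male 1, where Ncr1 had 38 counts (1.81 CPM), Txk was at 514 CPM and Cd160 at 282 CPM, both above their young medians. The log2 ratio of Styk1 to Ncr1 was -3.04 ± 0.56 (SD, n = 6) in young and -0.20 ± 1.00 (SD, n = 5) in middle-aged libraries, without overlap (exact permutation test, 2-sided, p = 0.00216, the smallest the design allows). It kept a p under 0.05 in 14 of 14 other settings and lay at 3.78, 2.29 and 2.17 (middle-aged minus young) within replicate numbers 1, 2 and 3. The log2 ratio of Txk to Ncr1 was 2.56 ± 0.86 and 5.42 ± 2.03 (exact permutation p = 0.00866) and that of Klrg1 to Ncr1 was -2.78 ± 1.54 and -0.51 ± 1.21 (exact permutation p = 0.00866), both also under 0.05 in 14 of 14 settings. Within replicate numbers 1, 2 and 3 the ratio of Txk differed by 4.05, 1.58 and 2.30, and that of Klrg1 by 4.83, 0.68 and 0.77, where number 1 holds young female 1 with its 5 counts of Klrg1. The ratios of Cd160 (difference 2.73, p = 0.0238), Sh2d1b1 (2.56, p = 0.0325) and Cd226 (2.13, p = 0.0368) to Ncr1 had exact permutation p values that rose above 0.05 in 4, 6 and 7 of 14 settings, reaching 0.0571, 0.0810 and 0.0905 without middle-aged male 1. They also did so without young male 2 or young female 3 for all 3 genes, without young male 3 for Cd160 and Cd226, without middle-aged female 1 or young female 2 for Sh2d1b1 and Cd226, without young female 1 for Sh2d1b1 and without middle-aged male 2 for Cd226. Over these settings the differences lay between 2.05 and 3.46 for Cd160, 1.90 and 3.08 for Sh2d1b1, and 1.51 and 2.82 for Cd226, and a test with fewer libraries has fewer permutations. Without middle-aged female 2, the 6 differences lay between 2.28 (Klrg1) and 3.47 (Txk). All 6 ratios share Ncr1, so they are not independent of each other or of its own difference, and the p values were not adjusted for their number.

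Over the 11 libraries, no other gene of the 7 followed Ncr1 closely. The Pearson r of log2 CPM with Ncr1 was 0.48 for Klrg1 (Spearman 0.63), 0.43 for Styk1 (0.38), 0.30 for Cd226 (0.39), 0.10 for Sh2d1b1 (0.25), -0.51 for Cd160 (-0.57) and -0.61 for Txk (-0.55). These correlations are descriptions over libraries that share age, replicate number and depth, and no p is given. Many genes followed Ncr1 more closely, as 10.2% of the 13128 other genes tested had a higher r than Klrg1 and 13.6% a higher r than Styk1. After the age group means were taken out, r was 0.61 for Klrg1 and 0.82 for Styk1, and without the 2 libraries farthest from the median of Ncr1 it was 0.57 and 0.11. Over the 6 young libraries alone it was 0.67 and 0.79. The r of Cd226 turned to -0.19 with the age group means taken out and to -0.87 over the young libraries alone. Under the same checks, r was 0.14 and 0.15 for Sh2d1b1, -0.55 and -0.81 for Cd160, and -0.44 and -0.07 for Txk. Klrg1 and Styk1 had an r of 0.76 with each other (0.61 to 0.88 when 1 library was left out), and both moved with the gene length slope (0.68 and 0.92).

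**Figure D4:**
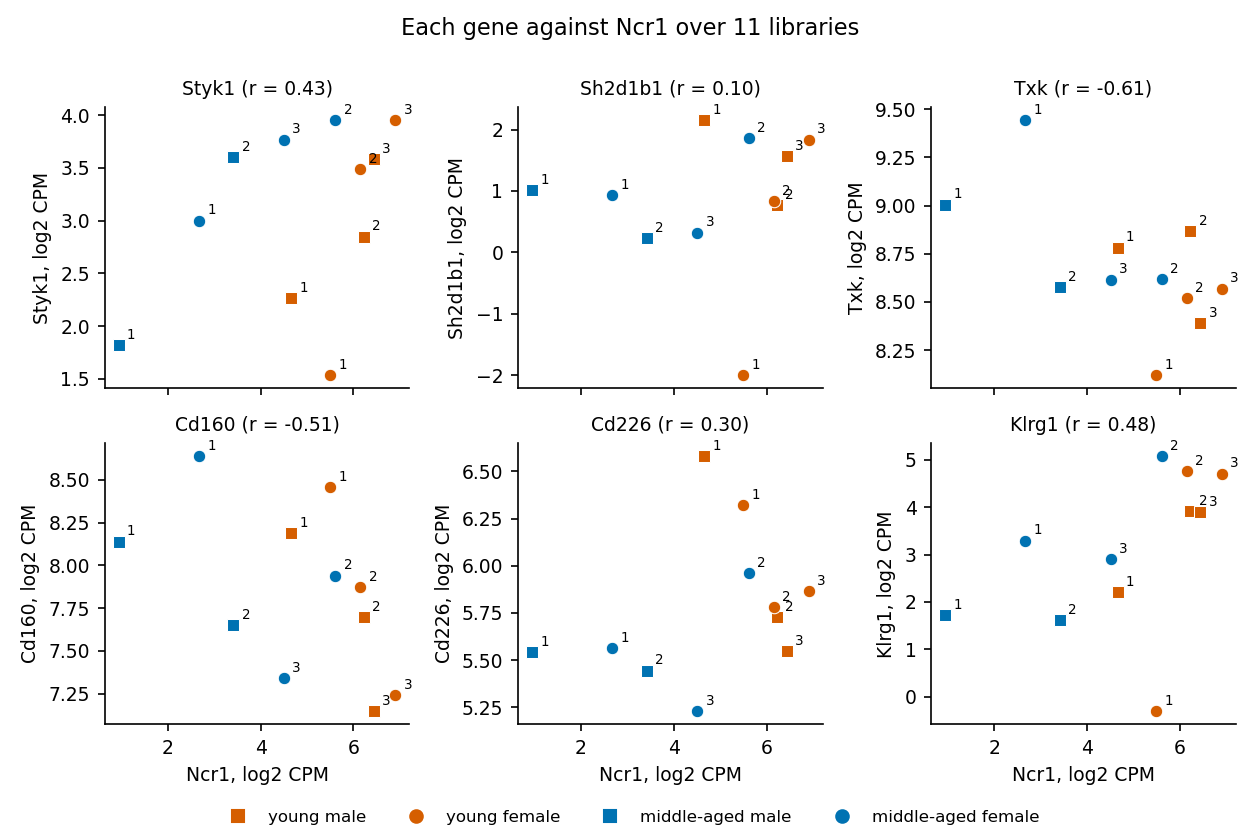
Log2 CPM of each of 6 genes against log2 CPM of Ncr1 over 11 libraries, with colour for age group, marker shape for sex and the replicate number beside each point. Middle-aged libraries other than female 2 lie to the left of all young ones in Ncr1, number 1 lies leftmost within each age group, and Cd160 and Styk1 spread along the y axis by replicate number.

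The 5 genes whose pattern over libraries was most like that of Ncr1, among those with a mean log2 CPM over 1, were Gm6637 (r = 0.95), Cd244a (0.94), Haus5 (0.93), Cdc25b (0.92) and Ehd4 (0.92). Cd244a encodes the NK cell receptor 2B4, and the range of its r when each library was left out was 0.88 to 0.96. It was at 6.33 to 35.3 CPM in young libraries, at 0.856 to 5.88 CPM in 4 middle-aged ones and at 22.8 CPM in middle-aged female 2 (log2 fold change -1.80, SE 0.66, edgeR adjusted p = 1.00, and -2.46 without that library). Gzma, the gene of granzyme A, had an r of 0.92, with 215 to 472 CPM in young libraries, 23.5 to 43.8 CPM in 4 middle-aged ones and 335 CPM in middle-aged female 2 (log2 fold change -2.20, SE 0.62, edgeR adjusted p = 0.559). Without that library, the log2 fold change of Gzma was -3.22 (SE 0.28) and passed the threshold (edgeR adjusted p = 0.00201). The values of this fit for Gzma, Cd244a, Tyrobp and Klrb1c were added after the data were seen. In it Cd244a (edgeR adjusted p = 0.444), Tyrobp (edgeR adjusted p = 0.249) and Klrb1c (log2 fold change -0.87) did not pass. The genes most like the others were Lrrfip1, Tsc2 and Myo7a for Styk1 (r of 0.96 to 0.97), Yod1, Nr4a1 and Dnajc1 for Sh2d1b1 (0.93 to 0.95), Crbn, Rab5a and Exosc9 for Txk (0.90 to 0.91), Dcun1d5, Cd48 and Glod4 for Cd160 (0.97), Rtp4, Isg15 and Thoc6 for Cd226 (0.92 to 0.96) and Gm4956, Plekho1 and Basp1 for Klrg1 (0.92 to 0.94). Rtp4 and Isg15 are interferon-induced genes, and Cd48 is the ligand of 2B4.

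Other genes of NK cells were counted from a list. Of 22 tested genes of NK cells, 5 were lower at an unadjusted p under 0.05 in edgeR (Cd244a, Klrb1c, Klrb1b, Klra4 and Gzma), 0 higher, 0 had an adjusted p under 0.05, and 16 of 22 had a log2 fold change below 0, with a median of -0.48. The list did not hold Klrk1, Klrc1, Klrc2 and Klrc3, which the paper reports as higher in middle-aged CD8+ Tregs. The paper also reports enrichment of an NK cell gene signature in them. These counts thus describe the listed genes and not NK cell genes in general. The lectin receptor Klrb1c (NK1.1), a defining marker of NK cells, was present in every library, at 34.2 to 135 CPM in young and 30.2 to 95.1 CPM in middle-aged libraries (log2 fold change -0.78, SE 0.33, edgeR adjusted p = 1.00, limma voom 0.0143). Klre1 made up 21.7% to 73.5% of a shorter list of 13 NK cell genes (10 tested, 8 below 0 and 2 above, median -0.52) and had a log2 fold change of 0.65 (SE 0.40, edgeR adjusted p = 1.00) and an r of -0.77 with Ncr1. The r of the other genes of that list with Ncr1 ran from 0.02 (Clnk) to 0.94 (Cd244a), with 0.68 for Klrb1c and 0.42 for Fcer1g. That list summed to 445 to 662 CPM in young and 358 to 880 CPM in middle-aged libraries (log2 difference 0.01, exact permutation p = 0.965). Without Klre1, a setting chosen after the data were seen, the remaining 12 genes summed to 204 to 477 CPM in young and 117 to 411 CPM in middle-aged libraries (log2 difference -0.60, exact permutation p = 0.121). Without middle-aged female 2 as well the difference was -0.85 (exact permutation p = 0.0333). Both the gene and the library were left out after their values were seen, so this last p cannot serve as a test of the list. The part of these NK cell genes in the difference of Ncr1 was not tested.

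Genes of T cell identity formed the other reference. Over 19 tested genes of T cell identity, 0 had an adjusted or unadjusted p under 0.05 in edgeR, and the median log2 fold change was -0.12. Their sum was 13292 to 24980 CPM in young and 12718 to 21337 CPM in middle-aged libraries (log2 difference -0.14, exact permutation p = 0.496). The log2 ratio of Cd160 to this sum had an SD of 0.29 over all 11 libraries and that of Cd226 0.33, against 1.98 for Ncr1, 1.88 for Klrg1, 1.31 for Sh2d1b1, 1.17 for Styk1 and 0.45 for Txk. Against the shorter NK list the SDs were 0.37 for Cd160, 0.43 for Cd226 and 0.42 for Txk, and 1.93 for Ncr1, 1.67 for Klrg1, 1.18 for Sh2d1b1 and 1.05 for Styk1. Cd160, Cd226 and Txk were thus the less variable of the 7 genes against either list. That NK list still held Klre1, at 21.7% to 73.5% of its sum, and ratios to it without Klre1 were not computed. Sh2d1b1 and Klrg1 had their lowest ratios to both lists in young female 1, where they had 1 and 5 counts. Of 10 genes listed for the sorted cells (Cd8a, Cd8b1, Cd44, Il2rb, 5 genes of the Ly49 family and Ikzf2, the gene of Helios, which was not stained in the sort), 1 (Klra3) was higher at an unadjusted p under 0.05, and 0 at an adjusted one. Among 17 tested transcription factors of NK cells, 1 (Id2) was higher at an unadjusted p under 0.05 and 0 at an adjusted one in edgeR, with a median of 0.26. Eomes was at 164 ± 52.1 CPM in young libraries (SD, n = 6) and 255 ± 81.9 CPM in middle-aged ones (SD, n = 5), and Tbx21, the gene of T-bet, at 285 ± 118 and 387 ± 66.9 CPM.

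Markers of other cells were summed per library. B cell genes were at 1518 to 2042 CPM in young and 1207 to 2184 CPM in middle-aged libraries, plasma cell genes at 98.7 to 133 and 117 to 369 CPM, and myeloid genes at 1463 to 3442 and 1423 to 3684 CPM. In young libraries the plasma cell sum was mostly Xbp1 (83.7 to 112 CPM) and the myeloid sum mostly Ly6c2 (1320 to 3332 CPM). Ly6c2 was at 995 to 2517 CPM in middle-aged libraries, lowest in female 2. Dendritic cell genes were at 479 to 1215 and 729 to 2256 CPM, CD4 T cell genes at 21.5 to 133 and 80.4 to 156 CPM, and genes of gamma delta T and NKT cells at 92.0 to 199 and 111 to 276 CPM. The CD4 T cell sums were mostly Cxcr5 (20.2 to 122 CPM in young and 46.5 to 122 CPM in middle-aged libraries). Cd4 itself was at 0.278 to 18.7 and 1.54 to 15.4 CPM. The plasma cell, myeloid and CD4 T cell sums are therefore no direct measure of those cells. Erythroid and platelet genes were at 27.8 to 156 CPM in young and 1.05 to 31.5 CPM in middle-aged libraries. No gene of these lists was at 0 in every library. In edgeR 0 genes of these lists had an adjusted p under 0.05. At an unadjusted p under 0.05, S100a8, S100a9 and Lyz2 of 12 myeloid genes were higher and 4 of 6 erythroid and platelet genes, all haemoglobin genes, were lower in middle-aged libraries. Middle-aged female 2 had 702 CPM of S100a8 and 766 CPM of S100a9. The other middle-aged libraries had 3.90 to 38.6 and 4.56 to 41.4 CPM, and the young ones 0 to 12.1 and 0 to 14.8 CPM. The part of these cells in the levels of the 7 genes was not tested.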

How the data were processed

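RNA of sorted CD8+ Tregs was measured in 11 libraries (6 young, 5 middle-aged), made with a SMARTer kit for low RNA input. The authors deposited counts, whole numbers of reads per Ensembl gene without normalization, with coordinates of GRCm38, and 0 value columns were left unused. The submitters' processing notes name kallisto and mm10, without roles. Strand handling, filters and the sharing of reads between paralogs are not given in the sources used here, and the depth sets the precision (opening paragraphs).

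Computations used R 4.3.3, edgeR 4.0.16, limma 3.58.1 and DESeq2 1.42.0. Counts were scaled by TMM factors, genes were filtered with filterByExpr (age as the group, counts of at least 10, total of at least 15), and age was tested with glmQLFit (robust) and glmQLFTest in a model with sex, with Benjamini-Hochberg adjustment over 13129 genes. Log2 CPM used a prior count of 2. Single values were compared by exact 2-sided permutation over libraries. The SE is the log2 fold change over the root of F. No pair of libraries agreed within counting noise (smallest chi-square per degree of freedom 10.3). The authors describe the libraries as independent biological replicates, and the labels do not name the animals or sort days, so p-values measure the spread between these samples.

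The 7 genes and all lists were chosen with earlier results of these data known. Named beside them were preset partner genes and the 5 (Ncr1) or 3 (others) genes of highest r. Genes of the lists outside that rule (Cd244a, Gzma, Klre1, Lyz2, Ly6c2, Xbp1, Cxcr5, Cd4 and those named with an unadjusted p) were named after their values were seen. Alternatives were other scalings, filters and tests, no sex term, blocks, each sex, deep libraries and each library left out. The steps were tested on simulated data, where DESeq2 made a larger share of false calls than edgeR and limma voom.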

Additional observations from a re-analysis of the deposited data

Results flagged for a closer look

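Klrg1 in middle-aged female 2 stood at 33.7 CPM, far from the other 4 middle-aged libraries (2.95 to 9.69 CPM), with a gap of 0.781 of the group's range by Dixon's test. Of 18 groups of values examined in this way 1 stood out, and chance alone marks about 1 in 20. Without this library the difference in mean log2 CPM of Klrg1 (middle-aged minus young) was -0.80. The same library was highest of all 11 in the summed markers of myeloid, dendritic, plasma and B cells, and it had the highest middle-aged values of Ncr1 (48.8 CPM), Styk1 (15.4 CPM), Sh2d1b1 (3.51 CPM) and Cd226 (62.1 CPM). The part of these markers in its Klrg1 level was not tested.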

How the results depend on the processing

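Ncr1 kept its direction in every alternative run and crossed the threshold in 3, DESeq2 (-2.34), limma voom (-2.69) and edgeR with the gene length slope (-2.63), where the 7 genes had 1 call each. The genes called by age numbered 3 in edgeR, 112 in DESeq2, 138 in limma voom, 45 with the length slope, 17 with at least 1 count in any library, 5 with at least 10 counts in every library, 5 without the sex term, 6 in deep libraries, 0 in males alone and 0 in females alone, and 1 to 4 when each library was left out. Styk1 turned to -0.03 in males alone and -0.20 in deep libraries, and ran from -0.12 to 0.42 when each library was left out. Sh2d1b1 turned to 0.27 in females alone (from -0.61 to 0.10 when each library was left out), and Cd160 ran from -0.0412 to 0.33 in such fits. The summed level of the NK list was -0.0024 with library size alone, -0.60 without Klre1, -0.59 within replicate number 3 and -0.16 to 0.16 when each library was left out, and that of the T cell list 0.0608 in deep libraries. The causes were not tested. The labels do not say that a replicate number marks a shared animal, day or batch, and the deviations of same-numbered libraries correlated at 0.03 to 0.56 (median 0.35, 15 pairs), so not every pair passed 0.1 and the numbers were not taken as a pairing, although 8 of 11 libraries were closest to their own number, a hint of a shared effect. With the replicate block 19 genes were called, 0 of the 7 among them, and Ncr1 was at -2.51 (adjusted p = 0.0617 in edgeR). With the replicate block within sex 2 genes were called and Sh2d1b1 turned to 0.0103. Depth limits Sh2d1b1 and Klrg1 most, with as few as 1 and 5 counts in young female 1, and neither was tested when every library needed 10 counts.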
